A study of Mus musculus with 3 samples.

Results

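The prolactin receptor and STAT5 genes are 7 genes of prolactin signalling in milk-secreting (alveolar) cells: Prlr, Jak2, Stat5a, Stat5b, Cish, Socs2 and Elf5. They were taken by symbol, and all 7 were found among the 21881 symbols of the series. Total RNA was sequenced from 3 snap-frozen tumours of NDL(UCD), an ErbB2-driven mammary tumour line that is passed between mice as grafts. Cultured cells went into the fat pads of FVB/NJ females (strain labelled FVB/N) that were 6 to 8 weeks old; the tumours measured 5 to 10 mm across when collected. Each tumour came from a different mouse, and the 3 form a single group with no normal, untreated or other tumour group beside it. In NDL mice a mouse mammary tumour virus promoter drives an activated form of the Erbb2 transgene. All 3 tumours are grafts of the same cell line, so the spread between them is that of 1 line in 3 hosts, and the fat pads had not been cleared of their own epithelium. Comparisons are therefore between genes, between each gene and a fixed level, and between tumours.

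Prolactin is a pituitary hormone that drives the growth and milk secretion of mammary alveoli. Its receptor has no enzyme activity of its own and carries the tyrosine kinase JAK2, which phosphorylates the receptor and the transcription factors STAT5A and STAT5B. These enter the nucleus and bind a palindrome, TTCNNNGAA, near milk protein genes and near Cish and Socs2, whose protein products restrain cytokine and growth hormone receptors. Elf5 encodes an ETS transcription factor that is needed for alveolar differentiation in the mouse. The pathway acts mainly through phosphorylation, which RNA levels do not measure.

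The promoters below are shown because they hold the STAT5 palindrome at the hormone receptor gene, at a classical feedback target and at a classical milk protein target. They are RefSeq sequences of build GRCm38, from 250 bases before to 50 bases after an annotated start, 5′ to 3′ on the gene's strand, and capitals mark TTCNNNGAA. The motif is its own reverse complement, so a search of either strand finds the same matches.
Cish (GRCm38 chr9:107296409-107296708, plus strand): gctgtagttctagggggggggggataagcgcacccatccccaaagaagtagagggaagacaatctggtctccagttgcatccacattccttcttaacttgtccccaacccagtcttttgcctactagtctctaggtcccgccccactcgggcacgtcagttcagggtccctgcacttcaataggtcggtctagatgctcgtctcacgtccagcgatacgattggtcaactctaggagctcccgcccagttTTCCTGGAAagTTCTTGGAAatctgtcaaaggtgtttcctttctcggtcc
Prlr, the second of its 3 annotated starts (GRCm38 chr15:10223656-10223955, plus strand): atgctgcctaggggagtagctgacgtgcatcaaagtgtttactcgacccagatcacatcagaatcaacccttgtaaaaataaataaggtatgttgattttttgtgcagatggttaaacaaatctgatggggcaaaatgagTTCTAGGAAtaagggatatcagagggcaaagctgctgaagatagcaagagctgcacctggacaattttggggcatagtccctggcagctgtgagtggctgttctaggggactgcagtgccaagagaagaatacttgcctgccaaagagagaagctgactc
Csn2 (GRCm38 chr5:87699376-87699675, minus strand): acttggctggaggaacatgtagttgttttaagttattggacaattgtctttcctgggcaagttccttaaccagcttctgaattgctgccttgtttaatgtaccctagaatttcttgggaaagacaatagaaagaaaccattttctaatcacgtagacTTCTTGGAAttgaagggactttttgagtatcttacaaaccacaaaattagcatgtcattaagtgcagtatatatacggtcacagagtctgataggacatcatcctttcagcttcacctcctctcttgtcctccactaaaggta

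With the start base at position 0, the Cish window held TTCCTGGAA at 0 and TTCTTGGAA at 11. In the Prlr window TTCTAGGAA lay at -110, and in the window of Csn2, the beta-casein gene, TTCTTGGAA lay at -93. Over all promoters, 8.30% of 32851 windows held at least 1 match and 0.457% at least 2. Among 11 windows of 6 of the genes (Prlr, Jak2, Stat5a, Stat5b, Cish and Elf5) 2 held a match, the Cish window and the Prlr window shown. Of 20 prolactin and STAT5 target genes listed for comparison 16 had windows, 25 in all, of which 6 held a match. Counted by gene, 5 of the 16, Csn1s1, Csn2, Csn1s2a, Glycam1 and Bcl6, had a match in any window, beside 9.55% of all 27025 genes in the table. A match is a description of the letters and does not show binding.

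Values are FPKM, fragments per kilobase of transcript scaled to library size, so levels of different genes can be compared per length. The deposited intervals correspond to 11.7, 12.4 and 13.4 M (1e6) fragments in tumours 1, 2 and 3, summed over genes. The tumours differ in how their values follow the GC content of the transcripts. In the lowest of 4 equal bins of genes by GC content (31.0% to 45.4%), tumour 1 had a median of 0.51 log2 units above the mean of the 3 tumours and tumour 3 a median of -0.47. In the highest bin (54.6% to 72.8%) the medians were -0.46 in tumour 1 and 0.34 in tumour 3, and tumour 2 stayed within -0.05 and 0.11 in all 4 bins. Differences between tumours are therefore given as deposited and with lowess trends on GC content and transcript length removed. That removal would also take out any biological difference that follows GC content. A GC trend shared by all 3 tumours would stay in the values, which limits comparisons between genes of unlike GC content. A gene was called different between tumours where Cochran's Q on the deposited intervals had an adjusted p under 0.05 and the highest tumour was at least 2 times the lowest. As deposited this held for 32.5% of 11058 genes with a mean of 1 FPKM or more, and after trend removal for 15.3% of 10875.

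Socs2 and Elf5 were the most abundant of the 7 genes, Stat5a, Stat5b, Prlr and Jak2 lay at intermediate levels, and Cish was the least abundant. Mean levels were 71.1 ± 36.9 FPKM for Socs2, 55.3 ± 3.49 FPKM for Elf5, 9.39 ± 3.73 FPKM for Stat5a and 8.85 ± 2.90 FPKM for Stat5b. They were 6.53 ± 5.23 FPKM for Prlr, 4.89 ± 4.02 FPKM for Jak2 and 0.904 ± 0.471 FPKM for Cish (SD, n = 3 tumours each). The median of the 7 means was 8.85 FPKM, beside 2.44 FPKM over the 18028 genes tested. Socs2 exceeded 96.8% of those genes, Elf5 96.0% and Cish 36.9%.

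Set against 1 FPKM, a conventional level, 6 of the 7 genes were above it (limma, Benjamini-Hochberg adjusted p under 0.05). Of all genes tested 54.2% were called above and 32.5% below. Cish was not separated from that level (-0.23 ± 0.32 log2 units, SE; limma adjusted p = 0.519). The smallest distance among the 6 was that of Jak2, 1.88 ± 0.41 log2 units above (SE; limma adjusted p = 0.00259), and Elf5 lay 5.65 ± 0.23 above (SE; limma adjusted p = 1.09e-07). When each tumour was rescaled to sum to 1000000, the median gene moved up by 1.46 log2 units and Cish came to lie above 1 FPKM (limma adjusted p = 0.0174). The share of calls that were above was then 73.4%, against 62.5% as deposited. With genes at 0 in all tumours kept in the fit, Prlr and Jak2 were no longer separated from 1 FPKM (limma adjusted p = 0.0517 and 0.0845).

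**Figure D1:**
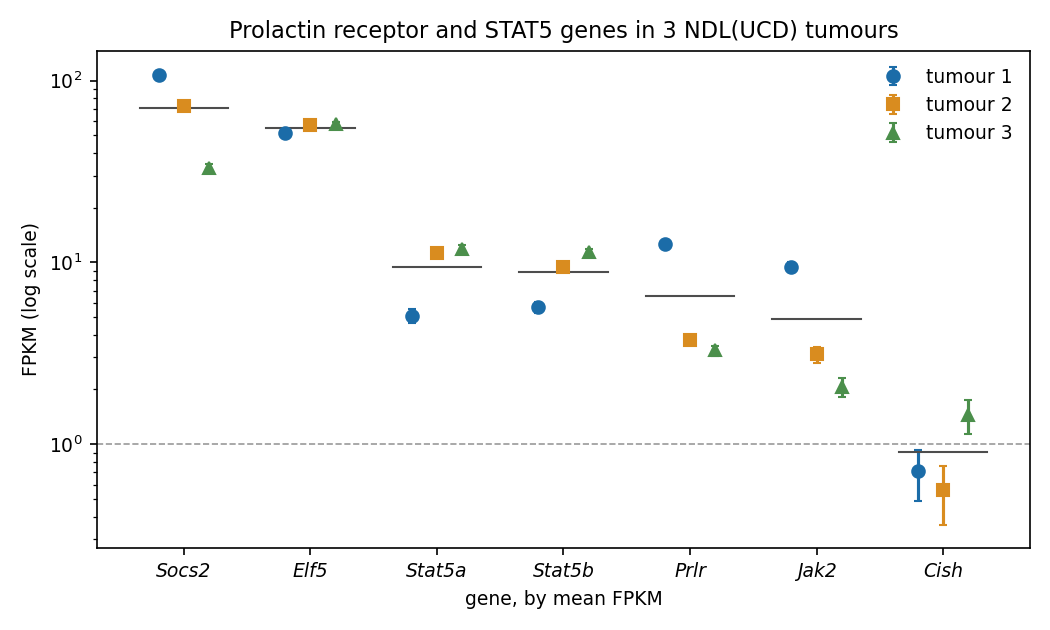
FPKM (log axis) of the 7 genes in tumours 1 to 3, ordered by mean. Points are the deposited values with their intervals, bars the mean of the 3 tumours, and the dashed line 1 FPKM. The 3 points of Elf5 sit between 51.3 and 57.6 FPKM, whereas those of Jak2 spread from 2.06 to 9.49 FPKM.

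All 21 pairs of the genes were compared as differences of log2(FPKM + 0.1) within each tumour. A difference was taken to exceed the spread when its sign was the same in all 3 tumours and its mean was over 2 SD, and 12 pairs met this (14 with the trends removed). With 3 tumours the exact sign-flip permutation test, two-sided, cannot go below p = 0.25, which 15 pairs reached (adjusted p = 0.35 over the 21 pairs). Of the 6 neighbours in the order, 2 were apart beyond the spread. Elf5 exceeded Stat5a by 2.64 ± 0.58 log2 units, and Prlr exceeded Jak2 by 0.43 ± 0.20 as deposited but by 0.42 ± 0.55, positive in 2 of 3 tumours, with the trends removed. The neighbours Socs2 and Elf5 (0.21 ± 0.93), Stat5a and Stat5b (0.05 ± 0.20), Stat5b and Prlr (0.65 ± 1.56) and Jak2 and Cish (2.11 ± 1.54) did not meet the rule (log2 difference, first minus second, SD, n = 3). With the trends removed Jak2 did exceed Cish beyond the spread, by 2.12 log2 units.

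The receptor gene Prlr (mm9 chromosome 15, 10106993 to 10266775) had 12.6, 3.74 and 3.28 FPKM in tumours 1, 2 and 3. Tumour 1 was high and the other 2 were close to each other. These values rest on 3745, 1074 and 1046 implied fragments, and the deposited interval of tumour 1 (12.2 to 13.0 FPKM) lies far from that of tumour 2 (3.52 to 3.97 FPKM). The highest value was 3.83 times the lowest (Cochran's Q = 1731). After trend removal Prlr was at 6.51, 4.58 and 5.16 FPKM, a ratio of 1.42, and without tumour 1 the deposited ratio was 1.14. At 39.4%, its transcript has a lower GC content than all but 3.15% of the genes compared. The file gives 1 start and 1 value for the gene, so long and short receptor forms are not separated.

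Jak2, the kinase that the receptor carries (mm9 chromosome 19, 29326318 to 29387570), had 9.49, 3.12 and 2.06 FPKM in tumours 1, 2 and 3. As for Prlr, tumour 1 was the high one. The ratio of highest to lowest was 4.60 (Cochran's Q adjusted p = 7.33e-147) and remained 2.72 with the trends removed, at 7.37, 3.12 and 2.71 FPKM (Cochran's Q adjusted p = 2.86e-82). Its GC content is 44.3%, higher than that of 19.6% of the genes. Without tumour 1 the ratio was 1.51, under the ratio of 2 that a call required.

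Genes of prolactin, growth hormone and their placental relatives were at or near 0 in the tumour RNA. Not all of their products act on the prolactin receptor. Of the 6 genes in this lactogenic hormone list the 3 that were tested, all listed above 0 in at least 1 tumour, were below 1 FPKM. The other 3, the prolactin gene Prl, the placental lactogen gene Prl3d1 and Prl8a2, were listed at 0 in all 3 tumours. The growth hormone gene Gh was listed at 0.233 FPKM in tumour 2 and at 0 in tumours 1 and 3, and Prl3b1, a second placental lactogen, at 0.0463 FPKM in tumour 1 only. Prl2c2, a proliferin gene, was listed at 0.0434, 0.107 and 0.0180 FPKM. It belongs to a family of close copies, so its values are uncertain. Hormones that reach the tumour from the pituitary would not appear in these data.

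Of 11 other receptors and receptor chains that can use JAK2 or STAT5, 4 were above 1 FPKM, 5 below, 1 was not separated from it and 1 was listed at 0. The median was 0.535 FPKM. Ghr, the growth hormone receptor, was the highest at 13.5, 7.05 and 6.46 FPKM, so that tumour 1 was high here too. After trend removal Ghr was at 8.12, 7.67 and 9.80 FPKM, and its GC content is 40.9%. Per tumour Prlr was at 0.930, 0.537 and 0.515 times the level of Ghr. Il2rg, the shared chain of interleukin receptors of lymphocytes, followed at 2.22, 1.30 and 5.47 FPKM, and Csf2rb, the shared chain of the GM-CSF receptor of myeloid cells, at 1.36, 2.66 and 3.65 FPKM. Csf2rb has a close copy, Csf2rb2, so its values are uncertain. Between tumours 5 receptor genes of this list were tested. Ghr, Il2rg and Csf2rb were called as deposited, beside 32.5% of all genes tested. Il2rg alone was called after trend removal (ratio 4.19), beside 15.3% of all genes. Il2rg and Csf2rb were highest in tumour 3. There the summed FPKM of 7 macrophage markers was also highest, at 243, 437 and 902 in tumours 1, 2 and 3, and that of 7 T-cell markers was 6.50, 7.67 and 12.5. Among the T-cell markers Cd247 was highest in tumour 1 (4.56, 3.14 and 3.33 FPKM) and Cd8a in tumour 2 (0.0861, 0.390 and 0.361 FPKM). The other T-cell markers were highest in tumour 3. The part of macrophages and T cells in the values of Il2rg and Csf2rb was not tested.

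Stat5a and Stat5b lie side by side on mm9 chromosome 11, Stat5b at 100642045 to 100711899 and Stat5a at 100720665 to 100746483, with 8765 bases between them. On the other side of Stat5a, 1640 bases separate it from Stat3. Stat5a had 5.09, 11.3 and 11.8 FPKM and Stat5b 5.69, 9.49 and 11.4 FPKM in tumours 1, 2 and 3. In both genes tumour 1 was low and its interval did not overlap those of tumours 2 and 3. The pair stayed close within each tumour, Stat5a being at 0.897, 1.19 and 1.04 times Stat5b. The ratio of highest to lowest was 2.32 for Stat5a and 2.00 for Stat5b (Cochran's Q adjusted p = 4.00e-86 and 3.94e-69). With the trends removed the ratios were 1.53 and 1.39, at 6.80, 10.4 and 9.59 FPKM for Stat5a and 7.08, 8.88 and 9.82 FPKM for Stat5b. Their GC contents are 55.8% and 52.7%. With median-of-ratios scaling, where tumour 1 has a factor of 0.862 against 1.05 and 1.10, the ratios were 1.82 and 1.57. Without tumour 1 they were 1.05 and 1.20, and without tumour 3 that of Stat5b was 1.67.

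The 2 STAT5 genes share stretches of coding sequence, and fragments from these stretches cannot be told apart by their letters. Of all 50-base windows of the Stat5a reading frame 25.9% also occur in that of Stat5b, and 26.3% the other way round (GENCODE vM21 transcripts, reading frames of 2394 and 2361 bases). The longest coding transcripts of Stat5a and Stat5b have 3888 and 5213 bases, and their parts outside the reading frames were not compared. The longest shared run has 324 bases, 571 to 894 from the first base of either frame. Its first 60 bases are shown as an example of sequence that either gene could have given.
Stat5a and Stat5b: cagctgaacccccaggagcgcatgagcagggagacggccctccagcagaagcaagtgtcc
The rule by which such fragments were divided between the genes was not stated, so the value of either gene alone is uncertain.

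Among 8 other JAK and STAT genes 7 were above 1 FPKM and 1 below, with a median of 7.59 FPKM. Stat3, which acts downstream of interleukin-6 family cytokines and in mammary involution, was the highest at 38.4, 53.6 and 53.7 FPKM, and exceeded Stat5a by 2.44 ± 0.40 and Stat5b by 2.48 ± 0.25 log2 units (SD, positive in 3 of 3 tumours). Stat6, which interleukin-4 activates, had 10.7, 15.7 and 20.3 FPKM. The lymphocyte factor Stat4 was below 1 FPKM at 0.245, 0.394 and 0.0913 FPKM. None of the 7 that were tested between tumours was called there as deposited, beside 32.5% of all genes, although all 7 had ratios between 1.40 and 1.89. With the trends removed 1, Stat2, was called (ratio 2.06), beside 15.3% of all genes.

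The feedback genes Socs2 and Cish, both known as direct STAT5 targets, stood at opposite ends of the order. Socs2 (mm9 chromosome 10, 94874124 to 94879491) had 107, 73.0 and 33.3 FPKM in tumours 1, 2 and 3. The values of the 3 tumours were all apart from each other by more than their intervals. Cish (mm9 chromosome 9, 107199020 to 107204292) had 0.711, 0.559 and 1.44 FPKM, on 41, 31 and 89 implied fragments, so tumour 3 was the high one and the intervals of tumours 1 and 2 overlapped. After trend removal Cish was at 1.02, 0.501 and 1.12 FPKM, with tumours 1 and 3 close together and tumour 2 low. Socs2 was 132, 111 and 21.7 times Cish in the 3 tumours, a mean log2 difference of 6.09 ± 1.44 (SD, n = 3), and 102, 114 and 27.5 times with the trends removed. Tumour 3 had the lowest Socs2 of the 3 in both cases.

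Between tumours Socs2 differed 3.22-fold as deposited (Cochran's Q = 2503) and 3.39-fold with the trends removed, at 114, 68.6 and 33.6 FPKM. Its GC content of 47.5% lies near the middle of the range, above that of 36.0% of genes. Without tumour 3 the ratio was 1.47. For Cish, whose mean was under the 1 FPKM required for the test, the ratio was 2.58 as deposited and 2.24 with the trends removed. Tested without that minimum, Cish passed (Cochran's Q adjusted p = 1.09e-05).

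Of 17 other restraints on cytokine signalling 15 were above 1 FPKM and 2, Socs1 and Pias3, were not separated from it, with a median of 4.88 FPKM. The phosphatase genes Ptpn6 (SHP-1, mainly of blood cells), Ptpn11 (SHP-2) and Ptpn2 (which dephosphorylates JAK and STAT proteins) led, with means of 17.0 ± 7.36, 16.2 ± 3.35 and 15.3 ± 9.21 FPKM. Socs1, an inhibitor of interferon signalling, was the lowest at 0.602, 0.347 and 0.998 FPKM. Socs3, the inhibitor of the interleukin-6 receptor chain, had 1.67, 3.56 and 4.27 FPKM. Both were therefore far below Socs2. Between tumours 5 of 16 tested were called, beside 32.5% of all genes, and all 5 had ratios under 2 with the trends removed. Of these, Ptpn2 (25.7, 12.4 and 8.00 FPKM) and Pias2 (20.6, 14.9 and 9.94 FPKM) were high in tumour 1 and have GC contents of 39.7% and 42.8%. Low in tumour 1 were Socs3, Ptpn1 (5.54, 9.72 and 12.5 FPKM) and Ptpn6 (10.1, 16.1 and 24.8 FPKM), with GC contents of 54.9% to 58.7%. After trend removal 3 others, Socs4, Socs6 and Cav1, were called instead (ratios 2.53, 2.03 and 2.15), beside 15.3% of all genes. Each was lowest in tumour 1. As deposited Socs4 and Socs6 were highest in tumour 1, with ratios of 1.38 and 1.41. Trend removal thus moved tumour 1 from highest to lowest in both genes, whose GC contents are 38.5% and 39.9%. Cav1 was lowest in tumour 1 as deposited too (ratio 1.51).

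Elf5 (mm9 chromosome 2, 103252255 to 103291145) was the most even of the 7 genes. It had 51.3, 57.0 and 57.6 FPKM in tumours 1, 2 and 3, a ratio of 1.12, and 56.4, 53.2 and 56.5 FPKM with the trends removed, a ratio of 1.06. As deposited the 3 values differed by more than their counting error (Cochran's Q adjusted p = 1.70e-06) but not by the ratio of 2. That difference depended on the scaling. With each tumour rescaled to sum to 1000000 the ratio was 1.06 (Cochran's Q adjusted p = 0.0574). Without tumour 1 it was 1.01 (Cochran's Q adjusted p = 0.724). Elf5 exceeded Prlr by 3.34 ± 1.14 log2 units (SD, positive in 3 of 3 tumours), which was 4.05, 14.9 and 17.1 times per tumour as deposited and 8.54, 11.4 and 10.8 times with the trends removed.

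Of 18 other ETS and alveolar factors 13 were above 1 FPKM, 2 below and 3 not separated from it, with a median of 12.2 FPKM. The highest were Id2, an inhibitor of helix-loop-helix factors, at 79.2 ± 15.9 FPKM, Cebpb, needed for alveolar development, at 68.3 ± 21.5 FPKM, and Tfap2c, listed under its older symbol Tcfap2c, at 67.9 ± 11.6 FPKM. The lowest was Foxa1, a factor of hormone-sensing cells, at 0.0373 ± 0.0286 FPKM. Ehf, an epithelial ETS gene that is separated from Elf5 by 108901 bases on the same chromosome, had 97.5, 41.6 and 18.6 FPKM. It exceeded Elf5 1.90-fold in tumour 1 and lay at 0.731 and 0.324 times Elf5 in tumours 2 and 3, and with the trends removed at 1.16, 0.814 and 0.472 times. Also called between tumours were Hif1a (30.8, 13.4 and 9.26 FPKM), Nfib (40.1, 20.2 and 18.4 FPKM), Elf1 (12.1, 7.66 and 5.76 FPKM) and Elf4 (0.530, 1.02 and 1.84 FPKM). With Ehf, 5 of 15 tested were called, beside 32.5% of all genes. Only Ehf and Elf4 were still called with the trends removed, with ratios of 2.47 and 2.46, beside 15.3% of all genes.

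**Figure D2:**
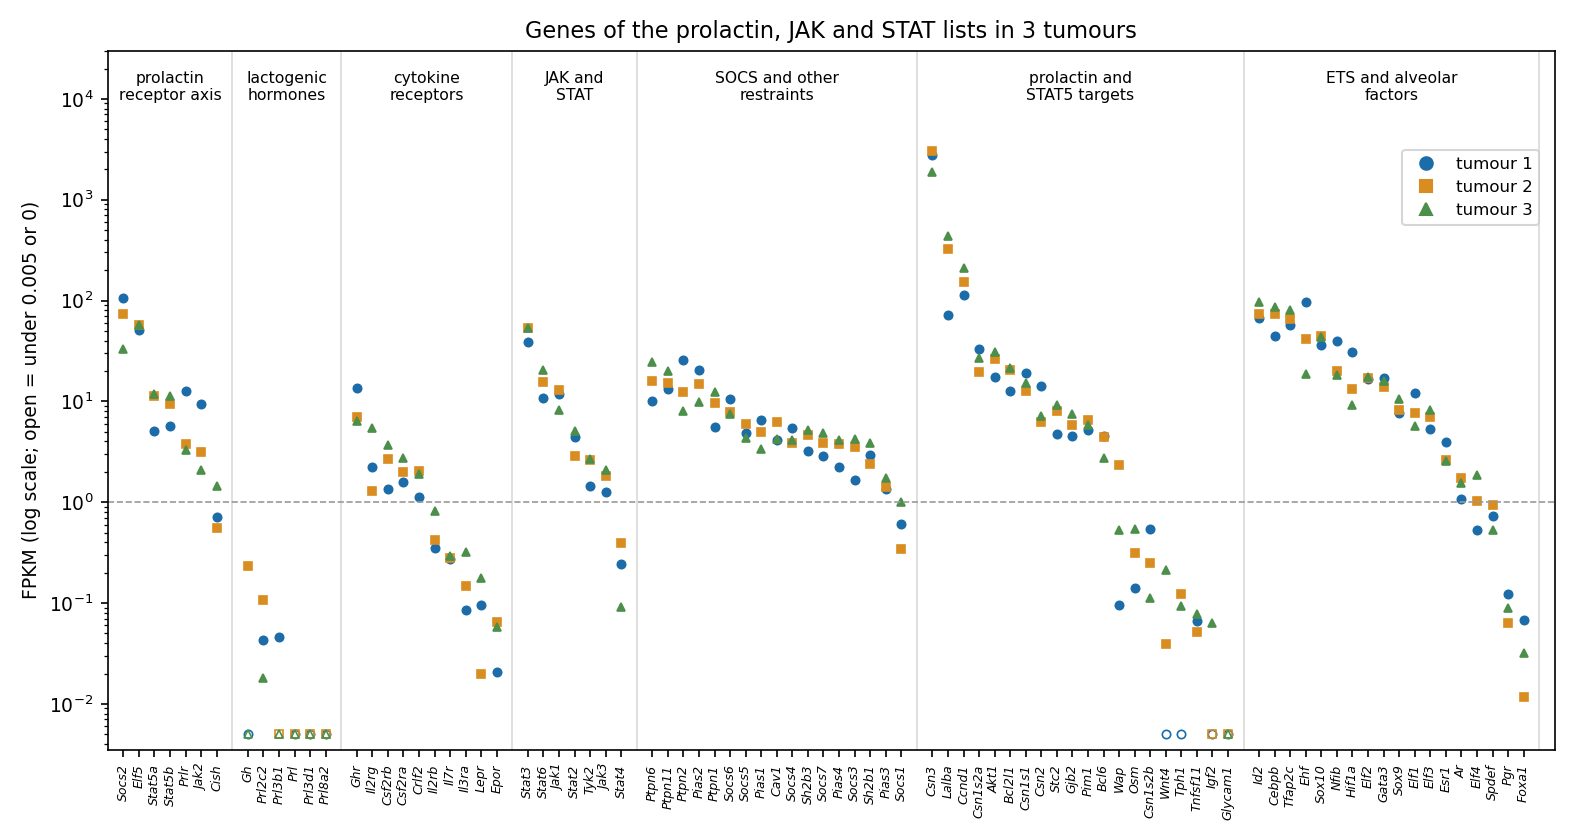
FPKM (log axis) of the 7 genes and of the 6 comparison lists in tumours 1 to 3, each list ordered by mean and without genes that are not reported here; open symbols are values under 0.005 FPKM or at 0, drawn at 0.005, and the dashed line is 1 FPKM. Lactogenic hormone genes lie at the bottom, and the target list runs from Csn3 at a mean of 2561 FPKM to Glycam1 at 0.

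The prolactin and STAT5 targets covered a wide range of levels. Of 20 genes 12 were above 1 FPKM, 6 below, 1 (Wap) was not separated from it and 1 (Glycam1) was listed at 0, with a median of 5.92 FPKM. Of the 19 tested, 12 were thus called above, beside 54.2% of all genes. Csn3, which encodes kappa-casein, was the highest at 2761, 3037 and 1884 FPKM. Tumour 3 was lowest there, but after trend removal, at 1434, 3602 and 2945 FPKM, tumour 1 was. Next came Lalba, which encodes alpha-lactalbumin, at 72.2, 322 and 440 FPKM, and the cyclin gene Ccnd1 at 113, 153 and 208 FPKM. Lalba was low in tumour 1, with a ratio of 6.09 as deposited and 3.86 with the trends removed. Csn2 was far lower than Csn3, at 14.3, 6.24 and 7.19 FPKM, with a ratio of 2.30 as deposited and 1.55 after trend removal. Lalba and Csn2 were the 2 targets of 12 tested that were called between tumours as deposited, beside 32.5% of all genes. After trend removal the 3 called were Lalba, Csn3 (ratio 2.51) and Bcl6 (ratio 2.36), beside 15.3% of all genes. As ratios of FPKM + 0.1, Csn3 was 191, 479 and 258 times Csn2 in the 3 tumours. The paracrine signals Tnfsf11 (0.0657 ± 0.0130 FPKM) and Wnt4 (0.0837 ± 0.113 FPKM), which prolactin and progesterone are known to induce in other luminal cells, were below 1 FPKM.

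Of the 7 genes 6 had the required mean of 1 FPKM, and 5 of these were called different between tumours as deposited, beside 32.5% of all 11058 genes tested. With the trends removed 2 of 6, Jak2 and Socs2, were called, beside 15.3% of 10875 genes. Prlr, Stat5a and Stat5b had adjusted p under 0.05 in both cases but ratios under 2 once the trends were removed. Without tumour 1 a single gene of the 6, Socs2, was called, beside 5.72% of all genes. Without tumour 3 the count was 3, beside 14.2% of all genes. Each tumour is 1 library, so a difference between tumours and a difference between library preparations cannot be told apart. The test covers counting error only.

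**Figure D3:**
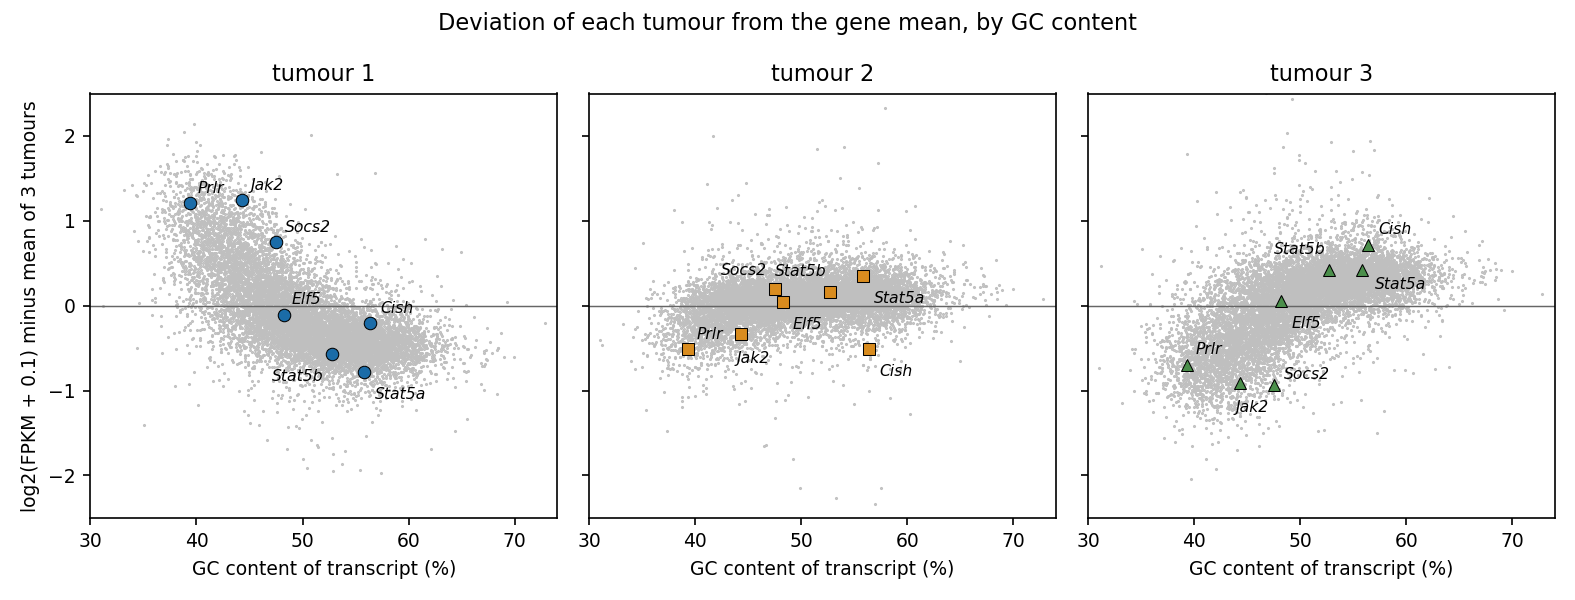
Deviation of each tumour from the gene's mean over the 3 tumours, in log2(FPKM + 0.1), against the GC content of the transcript in percent. Grey points are all genes that averaged 1 FPKM or more and had a known GC content, 12 points beyond 2.5 log2 units are not drawn, and coloured points are the 7 genes. In tumour 1 Prlr (1.21), Jak2 (1.24) and Socs2 (0.74) lie above 0 and Stat5a (-0.78) and Stat5b (-0.57) below, and in tumour 3 the signs are turned round.

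Ordered by GC content the 7 genes run Prlr, Jak2, Socs2, Elf5, Stat5b, Stat5a and Cish, from 39.4% to 56.4%. In tumour 1 the 3 genes of lowest GC content were each above their own mean and the other 4 below it. In tumour 3 the same 3 were below and the other 4 above. After trend removal the deviation of Prlr in tumour 1 shrank to 0.28 log2 units and that of Stat5a to -0.37, whereas Jak2 kept 0.88 and Socs2 0.83. The cause of the GC trend was not tested.

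**Figure D4:**
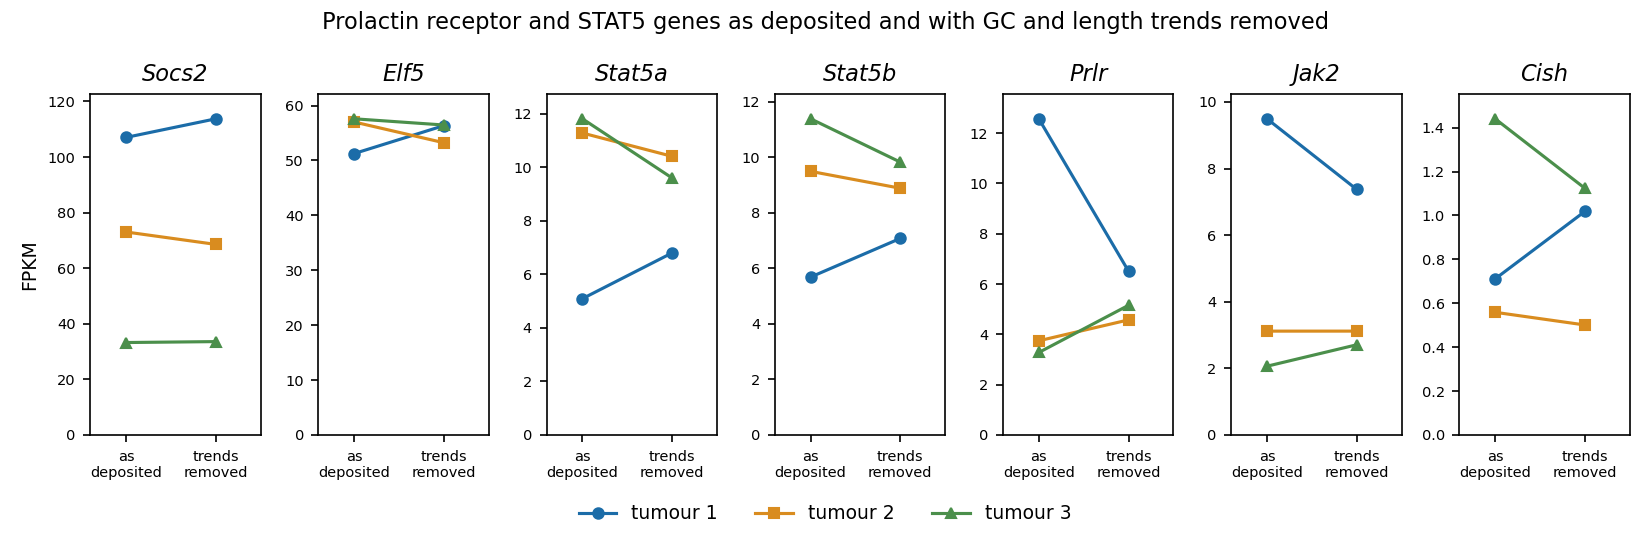
FPKM of each of the 7 genes in tumours 1 to 3, as deposited and with GC and length trends removed, on a linear axis from 0 for each gene. The lines of Prlr draw together, to between 4.58 and 6.51 FPKM, whereas those of Socs2 stay apart, between 33.6 and 114 FPKM.

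The gene with the most similar profile over the 3 tumours is given for 6 of the 7 genes, as the smallest root mean square difference of centred log2(FPKM + 0.1). Profiles were those of the deposited values, with the GC and length trends left in. The most similar genes are named below. They were Nipbl for Prlr (0.00670), Fnip1 for Jak2 (0.00380), Shkbp1 for Stat5a (0.00743) and Gm13315 for Stat5b (0.00362). They were Gm11428 for Cish (0.0150) and Trappc2 for Socs2 (0.00218). With only 3 tumours such likeness is common: between 24 (Cish) and 1337 (Stat5b) of some 10976 genes lay within 0.1.

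Markers of the cells that could carry these genes were measured in the same tumours. All 6 alveolar and luminal progenitor markers (Kit, Aldh1a3, Cd14, Lcn2, Trf and Csn3) and all 7 luminal epithelial markers were above 1 FPKM. Of 6 markers of hormone-sensing luminal cells 4 were above 1 FPKM, Prom1 (mean 26.1 FPKM), Ly6a (14.0 FPKM), Esr1 (3.04 FPKM) and Areg (2.54 FPKM), and Pgr and Foxa1 were below. Of 7 basal and myoepithelial markers 2 were above 1 FPKM, Acta2 (mean 32.9 FPKM) and Krt14 (4.77 FPKM), 3 were not separated from it, and Krt5 (0.0171 to 0.150 FPKM) and Trp63 (0.0787 to 0.325 FPKM) were below. Adipocytes and immune cells are also known to use JAK2 and STAT5. The summed FPKM of 8 adipocyte markers was 79.4, 50.0 and 222 in tumours 1, 2 and 3, and that of the luminal markers 801, 1237 and 1145. After trend removal the luminal sums were 1115, 1128 and 896, so that tumour 3 rather than tumour 1 was lowest. The luminal markers did not all follow that sum. Krt8 (132, 153 and 139 FPKM) and Cldn7 (28.2, 28.4 and 33.7 FPKM) were still lowest in tumour 1, and the others were lowest in tumour 3. Adipocyte, macrophage and T-cell sums were all highest in tumour 3 in both cases. Of the 7 genes, Prlr, Jak2 and Socs2 were highest in tumour 1, and Stat5a, Stat5b, Cish and Elf5 were highest in tumour 3 as deposited. With the trends removed Stat5a was highest in tumour 2 instead. The part of these cell types in the differences between tumours was not tested. In bulk tissue fewer cells of a type and less RNA per cell cannot be told apart.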

How the data were processed

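Directional libraries, random-primed from 50 ng of RNA after ribosomal depletion per the labels' protocols, were analysed from 3 tumours, numbered in accession order. Per the file headers, the deposited values are FPKM per gene, each with a status and interval bounds. TopHat, Cufflinks and build mm9 are named in the submitters' processing notes; versions, annotation and strand setting were not stated. Each file held 22310 rows and 21881 symbols (221 repeated symbols were summed), and 182 symbols lacking status OK in some tumour were not tested. The interval half-width was taken as 2 standard errors, and the squared ratio of FPKM to standard error as implied fragments, whole within 0.02 for 70.5%, 71.4% and 69.3% of genes under 60. At a median gene 1 FPKM corresponded to 68.7, 65.8 and 73.2 fragments, and for Cish the 3 fragments that a zero count leaves possible equal 0.0520, 0.0541 and 0.0486 FPKM, which covers counting error only.

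The level test used limma 3.58.1 (R 4.3.3) with log2((FPKM + 0.1)/(1 + 0.1)), intercept only, with trend and robust moderation, over 18028 genes. Cochran's Q (2 degrees of freedom), the sign-flip tests and lowess (span 0.3, fitted on genes averaging 1 FPKM or more whose locus spans 300 bp or more) were run in Python 3.11.15 with scipy 1.17.1 and statsmodels 0.14.6. GC content and length came from the longest coding transcript in GENCODE vM21, by symbol (19582) or synonym (1902), 98.2% of symbols. Levels given as times another gene are ratios of FPKM + 0.1, not of FPKM. Fold changes on the log2(FPKM + 0.1) scale understate those of low genes. Scripts for levels, Q and trend removal were tested on simulated data.

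The 7 genes and the lists were chosen with earlier results of these data known. From each list the 3 highest genes, the lowest and up to 5 called between tumours are named, apart from a few genes that are not reported here. The genes Bcl6, Stat2, Wap, Tnfsf11, Wnt4, Pias3, Socs4, Socs6, Cav1 and the cell markers were named after their values were seen. Promoter sequences are from RefSeq (GRCm38.p6), which had entries for 6 of the 7 genes, and Socs2 had none. Alternatives were other pseudocounts, scalings and filters, the trend removal and leaving out each tumour.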

Additional observations from a re-analysis of the deposited data

How the results depend on the processing

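The count of the 7 genes above 1 FPKM was 6 in most alternatives, 7 with an FPKM total of 1000000 and 4 with genes at 0 kept. The log2 level of Cish against 1 FPKM turned to 1.17 with an FPKM total of 1000000 and lay between -0.59 and 0.023 with a tumour left out, the higher value without tumour 2. Of all genes, 5864 were below 1 FPKM, but 109 where a mean of 0.5 FPKM was required and 9006 with genes at 0 kept, because fewer or more low genes were tested. The genes of the axis called between tumours numbered 5, beside 32.5% of all genes tested. They numbered 3 with median-of-ratios scaling (28.1% of all genes) and 2 with GC and length trends removed (15.3%). With a tumour left out they numbered 1 to 6 (5.72% to 29.6%). The 6, without tumour 2, included Cish, whose mean then reached the 1 FPKM required for the test. Over all genes the number called between tumours was 3592, but 1665 with the trends removed, 7586 with a ratio of at least 1.5, and 632 to 3280 with a tumour left out. The causes of these shifts between tumours were not tested. The mean log2 differences of neighbouring genes and of Socs2 and Cish moved by less than 1 SD with other pseudocounts and with the trends removed. Trend removal acts on each tumour's deviation from the gene's mean. It therefore leaves such means almost unchanged by construction and does not test them. Leaving out 1 of 3 tumours cannot move such a mean by 1 SD. The difference of Socs2 and Elf5 was negative without tumour 1 (-0.22) and that of Stat5a and Stat5b without tumour 2 (-0.05). No paired analysis was possible because the 3 tumours form a single group. At 31 to 89 implied fragments, depth limits Cish most.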
